A study of Mus musculus with 6 samples.

Results

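Voltage-gated sodium and calcium channels were followed in cochlear sensory epithelia (CSE) of mice, in adults aged 8 weeks and at postnatal day 3 (P3). The members were every probe set of the array whose single annotated gene symbol belongs to the sodium channel pore and beta subunits (Scn followed by a number and a or b) or to the calcium channel pore, alpha2delta, beta and gamma subunits (Cacna1, Cacna2d, Cacnb and Cacng). That gave 85 probe sets of 35 genes, 11 of sodium and 24 of calcium channels, among 45037 probe sets without controls, of which 34945 named a single gene and 18193 genes were named. The rule used no measured value.

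On each of the 6 Affymetrix arrays the RNA came from 40 CSE pooled from 20 Swiss Webster mice, with 3 pools of adults and 3 pools of P3 pups. The animals were neither treated nor genetically altered. The stria vascularis, the spiral ligament, Reissner's membrane and the modiolus were removed, but only a major part of the spiral ganglion, so a pool could hold neurons and their fibres beside hair cells and supporting cells. In such bulk samples fewer cells of a type and less RNA per cell cannot be told apart.

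A voltage-gated sodium channel is built of 1 large pore protein with smaller beta subunits, and it carries the upstroke of the action potential. A voltage-gated calcium channel has a pore protein of the Cacna1 family, which sets its type (L, P/Q, N, R or T), with an alpha2delta subunit on the outside and a beta subunit on the inside of the membrane. In the cochlea, hair cells use an L-type calcium channel to release transmitter, young inner hair cells fire calcium spikes before hearing begins, and the spiral ganglion neurons carry the signal to the brain as sodium spikes.

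The signals are MAS5.0 intensities, which the authors scaled so that arrays have about the same trimmed mean. They serve to compare a probe set between arrays, not probe sets with each other. The background of an array was the 90th percentile of 83 probe sets for receptors of smell, of the vomeronasal organ and of bitter taste. It was between 8.71 and 16.3 on the adult arrays and between 6.29 and 34.5 on the P3 arrays. P3 replicate 1 stood apart from the others, with the background of 34.5, a 3' to 5' signal ratio of 82.0 for Gapdh, against 0.707 to 2.07 on the other 5 arrays, and 30 member probe sets above background, against 41 to 59. Testing was limited to probe sets that exceeded background on 3 or more of the 6 arrays, and 52 of the 85 member probe sets, of 28 genes, were kept. A probe set can be kept through 1 stage alone, and the counts below cover kept members and not the whole family. For counts by gene the kept probe set of highest mean signal, the brightest, stood for the gene.

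The members that passed the test between the stages were all sodium channel subunits, and most members did not pass it. Called means an adjusted p under 0.05 (limma, Benjamini-Hochberg over all 29036 kept probe sets) together with a fold of at least 2. Among the 52 member probe sets 5 were called higher in the adult (3 of Scn8a, 1 of Scn4b and 1 of Scn7a), or 9.62%, against 3.39% of all kept probe sets, and 1 was called higher at P3 (Scn3b), or 1.92%, against 3.87%. At the brightest probe set 2 of 28 genes were called higher in the adult (Scn8a and Scn4b), or 7.14%, against 4.58% of 13743 genes, and 1 was called higher at P3 (Scn3b), or 3.57%, against 5.54%. The counts moved with single arrays. Without adult replicate 1 or without adult replicate 3 only 2 member probe sets were called higher in the adult, and there were 9 when P3 replicate 1 was left out. By gene, 4 were higher in the adult with P3 replicate 1 left out, with Scn7a and Cacnb4 added. The count of genes higher at P3 was 2 without adult replicate 1, with Scn2b added, and 0 without adult replicate 3 and without P3 replicate 2.

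Unadjusted p-values under 0.05 were found for 16 member probe sets, or 30.8%, against 23.7% of all kept probe sets. All adult arrays lay above all P3 arrays in 10 member probe sets, or 19.2%, against 15.5%, and all P3 arrays lay above all adult arrays in 6, or 11.5%, against 15.6%. The median log2 fold change (adult minus P3) was -0.02 over the member probe sets and 0.04 over all kept ones. At the brightest probe set it was -0.27 over the 28 member genes and -0.04 over all genes, 0.21 over the 10 sodium channel genes and -0.39 over the 18 calcium channel genes. The median over member genes was -0.025 with a filter of at least 4 of 6 arrays and -0.085 with the mean background added to every signal. None of the 18 calcium channel genes was called by limma, where 4.58% of all genes were called higher in the adult and 5.54% at P3. With shares this low, 0 of 18 does not set the calcium channel genes apart. An unadjusted p under 0.05 was found for 4 of them, or 22.2%, against 28.9% of all genes. The plot of fold changes by subunit class shows the wide intervals behind most of these values.

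**Figure D1:**
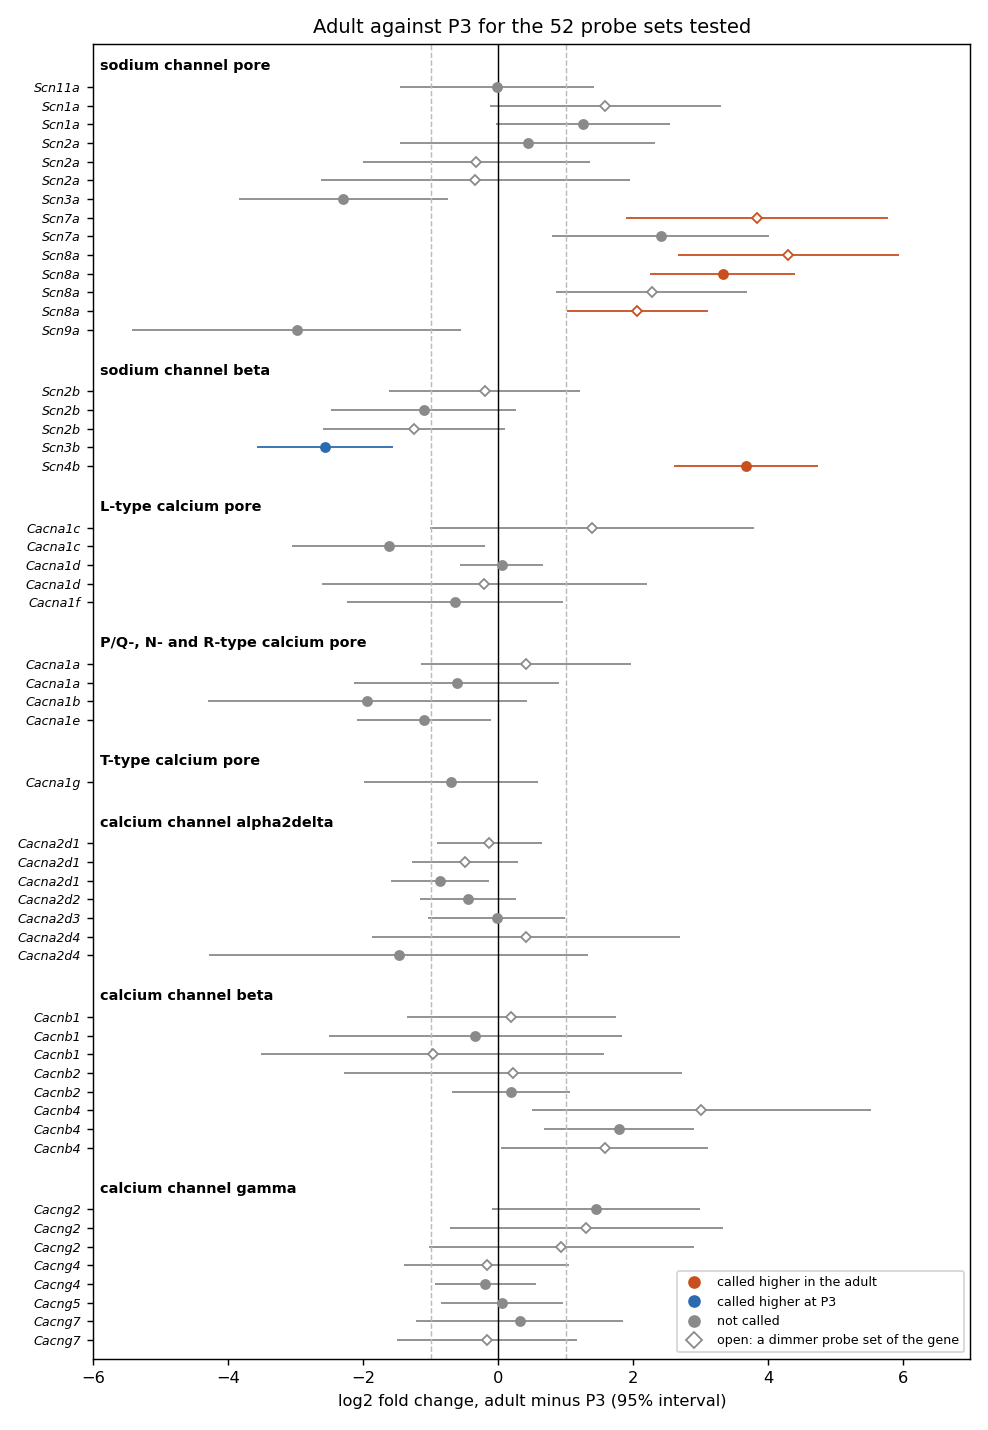
Log2 fold change (horizontal axis, adult minus P3) of the 52 tested probe sets, 1 row each and grouped by subunit class, with 95% intervals from limma; filled points are the brightest probe set of a gene, open diamonds its dimmer ones, and dashed lines mark a fold of 2. The probe sets of Scn8a, Scn4b and Scn7a called higher in the adult lie at 2.06 to 4.30, the one of Scn3b called higher at P3 at -2.57, and no calcium channel probe set is called.

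Scn8a encodes Nav1.6, the pore protein that fills nodes of Ranvier and axon initial segments of mature neurons and is known from the nodes of auditory nerve fibres. Its brightest probe set gave signals of 698, 172 and 351 on adult replicates 1, 2 and 3, against 28.7, 42.8 and 34.0 on P3 replicates 1, 2 and 3. The lowest adult array was above every P3 array, and the P3 signal of replicate 1 was below the background of that array. The log2 fold change was 3.33 (SE 0.47, n = 3 per stage, limma adjusted p = 0.00595). It was called in each of 16 alternative settings, at 2.82 to 3.83, and the highest adjusted p was 0.0399.

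The other 3 kept probe sets of Scn8a had values of the same sign, and 2 of them were called. The third by signal gave 134, 37.7 and 91.4 in adults, against 1.91, 7.23 and 4.37 at P3, where it was above background on 0 arrays. That is at least 6.15-fold higher in the adult (log2 fold change 4.30, SE 0.72, limma adjusted p = 0.0109). Leaving out adult replicate 1 (adjusted p = 0.0511) or adult replicate 3 (0.0806) ended the call by limma. The second by signal gave 192, 59.9 and 96.8 in adults, against 29.5, 23.9 and 21.5 at P3 (log2 fold change 2.06, SE 0.46, limma adjusted p = 0.0313). This call ended without adult replicate 1 (adjusted p = 0.0805, limma), adult replicate 3 (0.129), P3 replicate 2 (0.0875) and P3 replicate 3 (0.0937). The signals of the fourth were 30.0, 23.9 and 30.7 in adults and 3.51, 8.09 and 6.83 at P3, which missed the threshold (log2 fold change 2.28, SE 0.62, limma adjusted p = 0.0624). The remaining Scn8a probe set was not above background on any array.

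Scn4b encodes the beta4 subunit, whose inner tail can block an open sodium channel and so give the resurgent current of fast-spiking neurons, often together with Nav1.6. Its 1 probe set gave 467, 127 and 253 on the adult arrays, against 22.9, 15.8 and 19.9 on the P3 arrays. The groups were far apart, with P3 replicate 1 below its background. The log2 fold change was 3.68 (SE 0.47, n = 3 per stage, limma adjusted p = 0.00395), or 12.8-fold, and it was called in each of 16 alternative settings, at 2.97 to 4.15.

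Scn8a and Scn4b were the genes called higher in the adult at the brightest probe set. Their promoters, from 250 bases before to 50 bases after the transcription start, are shown with that of Scn2b, which is the neighbour of Scn4b among the protein-coding genes of chromosome 9, and that of Scn7a. The sequences are from RefSeq on GRCm38.p6, written along the strand of the gene, and capitals mark each CpG. The positions are chr15:100870395-100870694 on the plus strand for the first listed start of Scn8a, chr9:45138374-45138673 on the plus strand for Scn4b, chr9:45117626-45117925 on the plus strand for Scn2b and chr2:66784861-66785160 on the minus strand for Scn7a.
Scn8a: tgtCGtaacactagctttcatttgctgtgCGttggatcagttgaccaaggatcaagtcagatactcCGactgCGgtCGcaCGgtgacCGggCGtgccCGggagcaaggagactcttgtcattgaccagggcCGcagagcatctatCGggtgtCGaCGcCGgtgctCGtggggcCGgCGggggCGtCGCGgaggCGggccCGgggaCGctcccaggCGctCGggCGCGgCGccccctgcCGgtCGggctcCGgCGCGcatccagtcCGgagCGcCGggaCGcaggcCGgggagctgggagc
Scn4b: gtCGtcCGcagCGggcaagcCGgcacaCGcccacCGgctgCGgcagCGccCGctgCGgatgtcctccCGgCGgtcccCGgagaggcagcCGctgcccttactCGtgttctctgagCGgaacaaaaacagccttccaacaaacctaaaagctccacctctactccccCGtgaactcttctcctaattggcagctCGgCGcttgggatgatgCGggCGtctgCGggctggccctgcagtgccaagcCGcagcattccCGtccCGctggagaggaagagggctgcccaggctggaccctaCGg
Scn2b: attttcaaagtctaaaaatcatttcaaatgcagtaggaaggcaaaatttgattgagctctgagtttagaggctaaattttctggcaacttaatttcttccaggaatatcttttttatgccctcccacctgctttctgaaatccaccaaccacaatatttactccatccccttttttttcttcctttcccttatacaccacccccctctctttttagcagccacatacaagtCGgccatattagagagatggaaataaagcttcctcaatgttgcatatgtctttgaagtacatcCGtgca
Scn7a: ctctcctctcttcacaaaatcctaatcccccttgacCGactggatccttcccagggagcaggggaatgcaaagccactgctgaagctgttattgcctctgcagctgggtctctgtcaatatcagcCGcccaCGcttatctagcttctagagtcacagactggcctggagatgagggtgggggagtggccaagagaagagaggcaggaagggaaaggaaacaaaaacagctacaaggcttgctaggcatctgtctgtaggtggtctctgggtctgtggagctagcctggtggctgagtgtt

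The Scn8a stretch held 38 CpG at a G and C content of 70.0%, and that of Scn4b held 26 at 66.3%. The neighbour Scn2b had 2 CpG at 38.3%, and Scn7a had 3 at 54.0%. Many CpG were not particular to the called genes: the uncalled Cacna1d had 63 at its second listed start, Cacna1c 57 at its second, Cacna2d2 43, Cacna2d1 42, Cacna2d3 41 and Cacnb4 40 at its first. The second listed start of Scn8a, at chr15:100936021-100936320 on the plus strand, had 12 CpG at 53.3%. The table held 37 promoters of 27 of the 35 member genes, with a median of 9 CpG at 57.3%, against 7 at 52.7% over all 32851 promoters. Motifs were searched on both strands. An E-box (CANNTG) was in 70.3% of the member promoters, against 72.3% of all, and a GC box (GGGCGG) in 37.8%, against 35.7%. The TATA box letters TATAAA were in 5.41%, against 13.6%. The left part of the RE1 element bound by REST, TCAGCACC, was in 0 of 37 member promoters and in 1.65% of all. None of these motifs contains another, and a match is only a match of letters.

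Scn7a encodes Nax, a relative of the sodium channels that senses sodium and is known from glia, non-myelinating Schwann cells among them. The dimmer kept probe set gave 61.8, 51.1 and 43.6 on the adult arrays, against 0.978, 6.56 and 7.33 on the P3 arrays. The log2 fold change was 3.84 (SE 0.85, limma adjusted p = 0.0312). It was above background on 1 P3 array, and the value ran from 1.81 to 4.35 over 15 alternative settings, in 8 of which the call was made. It ended without adult replicate 1 (limma adjusted p = 0.102), adult replicate 2 (0.0871) or adult replicate 3 (0.132), and the log2 fold change was 2.90 without P3 replicate 1, the array of the lowest signal. The brightest probe set, made to the same accession, gave 51.4, 60.0 and 74.0 in adults, against 36.5, 7.08 and 5.86 at P3. All adult arrays lay above all P3 arrays, and P3 replicate 1 was high among the P3 arrays and close to its background. It was not called (log2 fold change 2.41, SE 0.71, limma adjusted p = 0.0772), and without P3 replicate 1 it was (3.25, adjusted p = 0.00416).

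Scn3b encodes the beta3 subunit, which is known to be abundant in the immature brain. Its brightest probe set gave 20.8, 18.6 and 10.2 on the adult arrays, against 130, 95.2 and 66.5 on the P3 arrays. Every P3 array was above every adult array and all 6 were above background. The log2 fold change was -2.57 (SE 0.44, n = 3 per stage, limma adjusted p = 0.0125), 5.93-fold higher at P3. It was called in 14 of 16 alternative settings, and not without adult replicate 3 (adjusted p = 0.0549) and without P3 replicate 2 (0.0568), both by limma. The beta2 subunit gene Scn2b did not pass the test. Its brightest probe set gave 167, 30.6 and 34.8 in adults, against 127, 99.9 and 140 at P3 (log2 fold change -1.11, 95% interval -2.48 to 0.26, limma adjusted p = 0.310). Adult replicate 1 alone reached the P3 signals, and without it the value was -1.89 (limma adjusted p = 0.0188). So of the 3 beta subunit genes measured, 1 was called higher in the adult, 1 was called higher at P3 and 1 was not called.

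The other pore genes of neuronal sodium channels were not called. Scn1a (Nav1.1), found in axon initial segments of many neurons, gave 278, 57.2 and 127 in adults, against 81.7, 36.2 and 50.5 at P3 (log2 fold change 1.25, 95% interval -0.03 to 2.54, limma adjusted p = 0.223). Scn2a (Nav1.2), which in other axons precedes Nav1.6 at nodes during development, gave 190, 14.2 and 40.7 in adults, against 25.9, 36.4 and 47.0 at P3. Its adult arrays spanned the whole P3 range (log2 fold change 0.44, 95% interval -1.45 to 2.33, limma adjusted p = 0.794), and its 2 dimmer kept probe sets had values of -0.34 and -0.32. Scn3a (Nav1.3), a pore known from embryonic and newborn brain, gave 13.7, 3.46 and 6.19 in adults, above background on 0 arrays, against 44.6, 23.8 and 32.6 at P3. It was above background on all 3 P3 arrays and lay higher there than on any adult array, and the fold toward P3 was at least 3.00, but the test was missed (log2 fold change -2.29, SE 0.68, limma adjusted p = 0.0807).

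Sodium channel genes of peripheral sensory neurons were at or near background, except Scn9a on 2 P3 arrays. Scn9a (Nav1.7) gave 0.691, 12.4 and 3.96 in adults, against 24.7, 20.3 and 33.9 at P3, above background on 1 adult and 2 P3 arrays (log2 fold change -2.99, SE 1.07, limma adjusted p = 0.134). Every P3 array was above every adult array. Its other 4 probe sets were not kept. In 1 of them, with 5.91, 3.01 and 3.90 in adults against 31.8, 19.7 and 15.1 at P3, the P3 arrays again lay above all adult arrays, and in the rest the stages overlapped. Scn11a (Nav1.9) gave 8.09, 13.4 and 11.7 in adults, against 10.5, 12.6 and 9.84 at P3 (log2 fold change -0.02, 95% interval -1.45 to 1.42). The 1 probe set of Scn10a (Nav1.8) was at 0.282 to 0.503 on the adult arrays and at 0.810 to 1.402 on the P3 arrays, below background on every array.

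**Figure D2:**
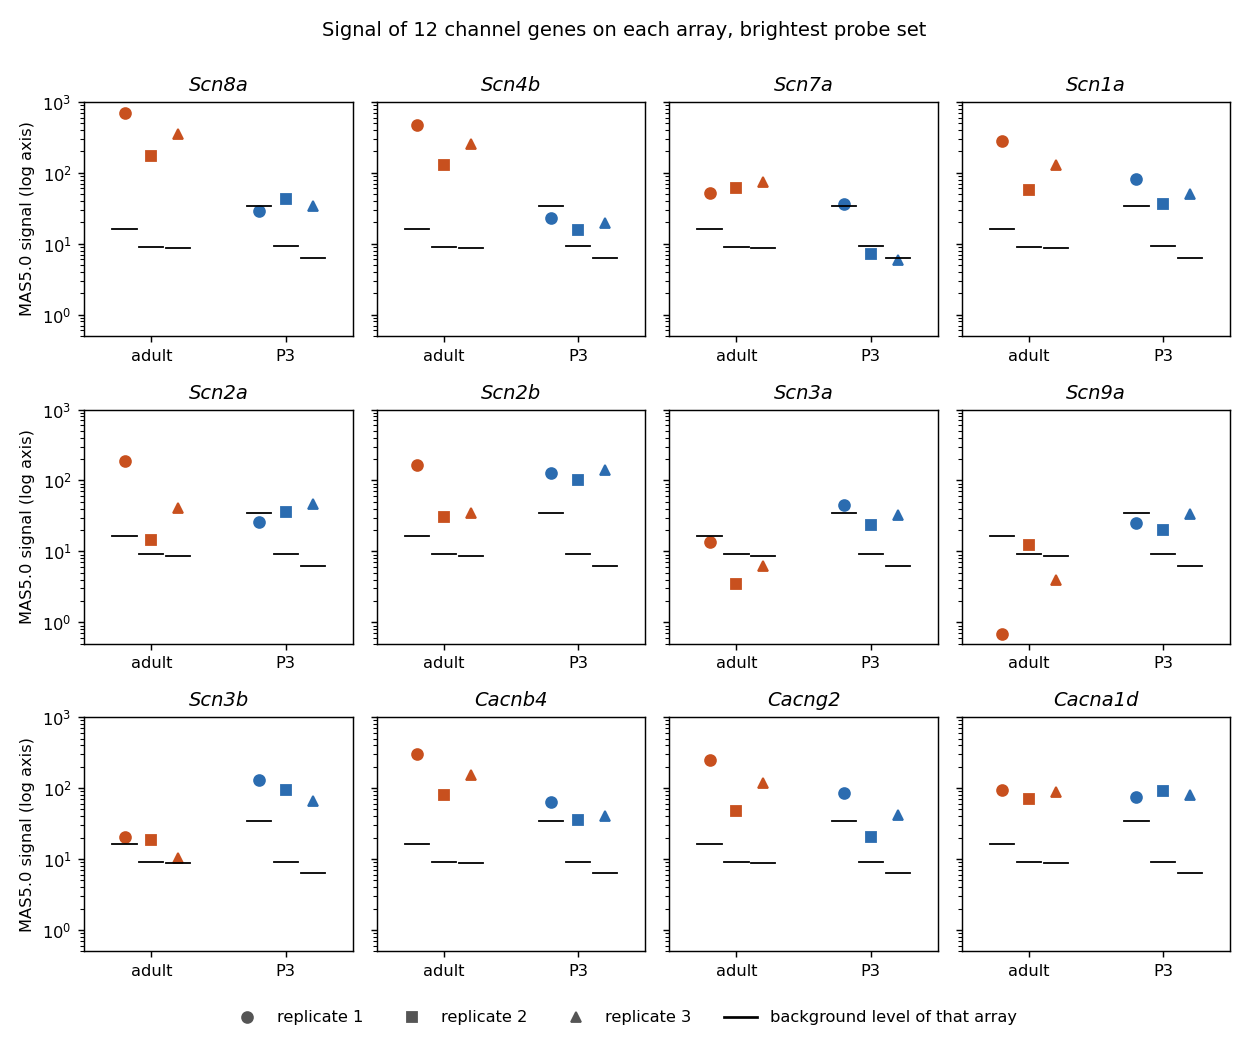
MAS5.0 signal (vertical log axis) of the brightest probe set of 12 channel genes on each array, adult arrays left of P3 arrays, with marker shape for the replicate and a bar at the background of each array. Scn8a, Scn4b and Scn7a lie higher on every adult array, Scn3a, Scn9a and Scn3b lie lower there, and Cacna1d lies between 70.9 and 95.2 on all 6 arrays.

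The L-type pore Cav1.3, encoded by Cacna1d, carries nearly all of the calcium current of inner hair cells. Its brightest probe set gave 95.2, 70.9 and 89.4 on the adult arrays, against 75.0, 90.6 and 79.9 on the P3 arrays. The stages overlapped and all arrays were above background. The log2 fold change was 0.05 (SE 0.27, 95% interval -0.56 to 0.66, limma adjusted p = 0.933), so at this probe set a fold above 2 lies outside the interval in either direction. The dimmer kept probe set does not bound the change that closely (log2 fold change -0.21, 95% interval -2.62 to 2.20). Cacna1c (Cav1.2), the L-type pore of heart and smooth muscle, was measured by 2 probe sets that disagree. The brightest gave 5.98, 15.1 and 10.99 in adults, against 53.4, 18.8 and 28.9 at P3 (log2 fold change -1.62, SE 0.63, limma adjusted p = 0.161). The dimmer one gave 27.9, 10.2 and 11.8 in adults, against 1.21, 12.7 and 12.02 at P3 (log2 fold change 1.39, SE 1.05, limma adjusted p = 0.472), and without P3 replicate 1 its value was 0.27. Cacna1f (Cav1.4), the pore of photoreceptor terminals, lay close to background, with 9.19 to 10.6 in adults and 8.66 to 34.1 at P3. Cacna1s (Cav1.1), the pore of skeletal muscle, was below background on every array.

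The pore genes of presynaptic channels all had negative values, and none was called. Cacna1e (R-type) gave 38.4, 17.2 and 21.1 in adults, against 60.2, 54.0 and 42.4 at P3. Every P3 array was above every adult array (log2 fold change -1.10, SE 0.43, limma adjusted p = 0.168). Cacna1b (N-type) gave 35.8, 1.82 and 5.05 in adults, above background on 1 array, against 36.4, 18.9 and 26.9 at P3 (log2 fold change -1.94, SE 1.04, limma adjusted p = 0.302). Cacna1a (P/Q-type) gave 57.8, 10.7 and 30.0 in adults, against 71.5, 28.7 and 32.4 at P3 (log2 fold change -0.61, SE 0.67). Its dimmer kept probe set had the opposite sign, at 0.41. Of the T-type pores, which open at low voltage, Cacna1g gave 70.4, 17.9 and 32.6 in adults, against 88.5, 36.5 and 54.5 at P3 (log2 fold change -0.70, 95% interval -1.99 to 0.58). Cacna1h was above background on 0 adult arrays and, on each of its 2 probe sets, on 2 P3 arrays, and was not kept. Adult replicate 2 gave the lowest adult signal in each of these 4 kept genes.

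The alpha2delta subunits, which help channels reach the membrane and are the targets of gabapentin in the case of alpha2delta-1 and alpha2delta-2, were all at or below 0 on the log2 scale at the brightest probe set, with none called. Cacna2d1 gave 88.0, 158 and 153 in adults, against 318, 187 and 217 at P3. The stages did not overlap (log2 fold change -0.87, SE 0.32, limma adjusted p = 0.143), but its 2 dimmer kept probe sets gave -0.49 and -0.13 and overlapped. Cacna2d2, the alpha2delta subunit of inner hair cell channels in mice, gave 124, 71.2 and 128 in adults, against 119, 135 and 176 at P3 (log2 fold change -0.44, 95% interval -1.15 to 0.27). Cacna2d3, which mice need for normal auditory processing, gave 192, 51.4 and 86.1 in adults, against 96.8, 91.0 and 101 at P3 (log2 fold change -0.02, 95% interval -1.05 to 1.00). Cacna2d4, known from photoreceptors, lay near background, and its 2 kept probe sets had opposite signs, -1.48 and 0.41.

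Among the beta subunits, Cacnb4 came closest to a call. This subunit is the one mutated in the lethargic mouse. Its brightest probe set gave 307, 80.0 and 152 on the adult arrays, against 63.1, 34.9 and 41.0 on the P3 arrays. All adult arrays were above all P3 arrays, and so they were on both dimmer probe sets. The values were 1.79 (SE 0.49, limma adjusted p = 0.0627), 1.58 (SE 0.67, adjusted p = 0.199) and 3.01 (SE 1.10, adjusted p = 0.141). The brightest was called by limma without P3 replicate 1 (2.03, adjusted p = 0.0476) and without adult replicate 2 (2.27, adjusted p = 0.0293). Cacnb2, the main beta subunit of inner hair cell channels in mice, gave 37.2, 27.9 and 35.4 in adults, against 27.8, 32.5 and 27.6 at P3 (log2 fold change 0.19, 95% interval -0.69 to 1.06). Cacnb1, the beta subunit of skeletal muscle, had 3 kept probe sets between -0.97 and 0.19, with none called.

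The gamma subunits are known mainly as partners of AMPA receptors in neurons (gamma-2, 3, 4, 5, 7 and 8) or of the muscle channel (gamma-1). Cacng2 (stargazin) gave 252, 47.9 and 119 in adults, against 84.0, 20.1 and 41.9 at P3. The stages overlapped (log2 fold change 1.45, 95% interval -0.10 to 3.00, limma adjusted p = 0.240), and its dimmer probe sets gave 1.31 and 0.94. Cacng4 gave 109, 75.1 and 74.3 in adults, against 71.9, 91.7 and 137 at P3 (log2 fold change -0.19), and Cacng5 and Cacng7 had 0.05 and 0.32. Cacng1, Cacng3, Cacng6 and Cacng8 were not kept, with every probe set above background on at most 1 of 6 arrays.

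The adult arrays differed among themselves in these genes in a shared order. Adult replicate 1 was the highest and adult replicate 2 the lowest of the adult arrays in 17 of 28 member genes, or 60.7%, against 27.5% of all genes. The median deviation of the member genes from their own adult mean was 0.80, -0.71 and 0.02 on the log2 scale on adult replicates 1, 2 and 3, against 0.03, -0.03 and 0.02 for all genes, which the scaling of the arrays holds near 0. Scn8a was 4.06 times, Scn4b 3.68 times, Scn1a 4.86 times and Scn2a 13.3 times as high on adult replicate 1 as on adult replicate 2. Cacna1d was 1.34 times and Scn7a 0.857 times as high. The 3' to 5' signal ratios of the adult arrays had the same order. On adult replicates 1, 2 and 3 they were 2.07, 0.921 and 1.22 for Gapdh and 4.18, 1.60 and 2.63 for actin. The median signal, at 24.4, 17.3 and 22.0, had it as well. The part of these array measures in the channel values was not tested.

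Markers of several cell types had the same order on the adult arrays. The median deviation on adult replicates 1, 2 and 3 was 0.96, -0.73 and -0.18 for the 12 neuron markers, 0.74, -0.94 and 0.09 for the 4 kept markers of peripheral glia, and 0.69, -0.70 and 0.04 for the sodium channel partners described below. For central glia it was 2.30, -1.31 and -0.72, and for the 4 kept markers of skeletal muscle 1.34, -1.07 and -0.20. Of the muscle markers, Myh1 and Ckm were above background on 1 adult array each, so their order is not a reading of muscle. The 6 kept hair cell markers had another order, with -0.42, 0.25 and 0.08. Signals near background limit this order, as Pou4f3 and Chrna9 were above it on 2 adult arrays each. The summed signals of the neuron markers were 25433, 8806 and 13558 on adult replicates 1, 2 and 3, against 5435, 5023 and 5868 on P3 replicates 1, 2 and 3, with Snap25 (2.82) and Nefh (2.42) called higher in the adult, 0 called higher at P3 and a median of 0.92. The other 10 were not called, among them Syt1 (-1.85, limma adjusted p = 0.0997), Stmn2 (-0.41) and Tubb3 (0.26). The 8 hair cell markers on the array summed to 200 to 284 in adults and 256 to 354 at P3. Of the 6 kept ones none was called by limma and 1 had an unadjusted p under 0.05. The outer hair cell gene Slc26a5 was not above background on any array. The 4 markers of peripheral glia summed to 20238, 5683 and 11387 on adult replicates 1, 2 and 3 and to 6268 to 11241 at P3, with none called and none at an unadjusted p under 0.05. Of 4 kept markers of central glia Mobp and Gfap were called higher in the adult. All 5 markers of central glia summed to 2245 on adult replicate 1, 220 to 266 on the other adult arrays and 182 to 311 at P3. Of 12 skeletal muscle markers 4 were kept with none called, and Myh2, Myh3, Myh4 and Myh8 were below background on every array. The 5 markers of smooth muscle and pericytes summed to 1834 to 2219 in adults and 940 to 1289 at P3. Of the 4 kept ones none was called by limma and 3 had an unadjusted p under 0.05. Of 10 supporting cell markers 2 were called higher in the adult and 4 at P3, with sums of 15760 to 19201 in adults and 12077 to 22071 at P3. Prl and Gh, hormone genes best known from the pituitary, were called higher in the adult. The 4 pituitary markers on the array, 3 of them kept, summed to 3479, 3244 and 287 on adult replicates 1, 2 and 3, against 35.0 to 71.0 at P3. The part of these cells in the channel values was not tested. Beside the marker counts stand the shares over all genes, 4.58% called higher in the adult and 5.54% at P3.

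**Figure D3:**
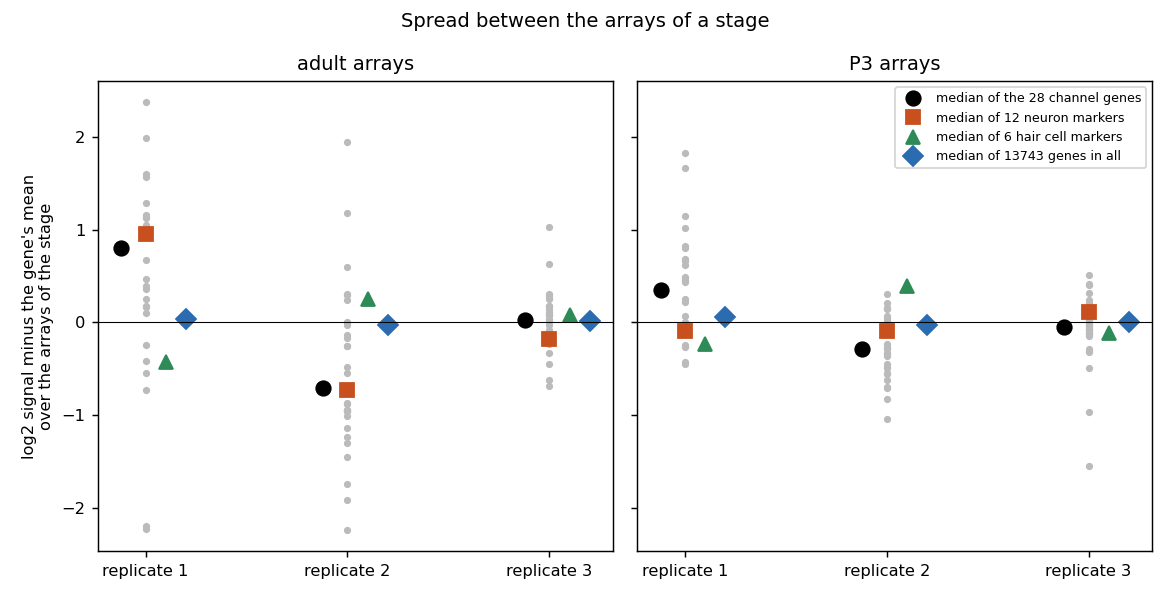
Log2 signal minus the mean of the gene over the 3 arrays of its stage (vertical axis) on each adult array, left, and each P3 array, right; grey points are the 28 channel genes at their brightest probe set and large symbols are medians of gene sets. On adult replicates 1 and 2 the medians of the channel genes (0.80 and -0.71) and of the neuron markers (0.96 and -0.73) lie apart from that of all genes. On P3 replicates 1, 2 and 3 the channel genes have 0.34, -0.28 and -0.05 and the neuron markers -0.09, -0.10 and 0.11. P3 replicate 1, the highest for the channel genes, is the array with a 3' to 5' ratio of 82.0 for Gapdh.

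Set against the neuron markers of the same array, most channel genes lay lower in adults. On this scale all adult arrays lay above all P3 arrays in 3 of 28 genes (Scn8a, Scn4b and Cacnb4) and all P3 arrays above all adult arrays in 17, against 4 and 6 for the log2 signals themselves. The mean log2 signal of the 12 neuron markers was 9.66, 7.99 and 8.33 on adult replicates 1, 2 and 3. It was 7.75, 7.74 and 7.98 on P3 replicates 1, 2 and 3. Adult replicate 1 stood furthest above the P3 arrays, and adult replicate 2 was close to P3 replicate 3. On average the markers were 0.83 higher in adults than at P3. This scale therefore moves the stage difference of any gene on the array by that much toward P3. The counts over all genes were not taken on it, so 17 of 28 cannot be read as particular to the channels. Scn8a minus this mean was -0.21, -0.56 and 0.13 on the adult arrays, against -2.91, -2.32 and -2.89 on the P3 arrays. On that scale the 3 adult arrays lay within 1 log2 unit of each other and 2.49 above P3 on average. Scn4b was 2.84 and Cacnb4 0.95 above P3 on the same scale, again without overlap, and Scn3b was at -3.40. Scn1a at 0.42 and Scn2a at -0.40 overlapped between the stages, as did Scn7a at 1.58. Cacna1d was at -0.78, Cacna1a at -1.45, Cacna1g at -1.54 and Cacna2d2 at -1.28, all without overlap, while their log2 signals overlapped. This scale was chosen after the values were seen and was not tested.

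Genes of 3 lists around the channels, grouped by function, are given beside them. The lists were chosen with earlier results of these data known, so their counts serve as description only. The list of sodium channel partners holds anchors, node proteins and potassium channels of axons. Of its 17 kept genes 3 were called higher in the adult and 0 at P3, against 4.58% and 5.54% of all genes. The median was 0.09, against -0.04 for all genes. The called ones were Sptbn4 (2.88, limma adjusted p = 0.0373), the spectrin that anchors channels at nodes, and Kcna1 (2.19, adjusted p = 0.0341) and Kcna2 (2.25, adjusted p = 0.0428), the potassium channels flanking nodes. Sptbn4 gave 239, 43.3 and 125 in adults, against 14.4, 26.3 and 8.50 at P3, with adult replicate 1 highest and adult replicate 2 lowest as in Scn8a.

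Of the 17 kept calcium channel partners 0 were called higher in the adult and 1 at P3, against 4.58% and 5.54% of all genes. With shares this low these counts do not set the list apart, and the median was 0.29. The called gene was Rem2, a small GTPase that inhibits calcium channels, with 8.55, 4.70 and 2.54 in adults, above background on 0 arrays, against 49.5, 42.5 and 34.8 at P3, at least 3.85-fold higher at P3 (log2 fold change -3.16, SE 0.65, limma adjusted p = 0.0234). Otof, the calcium sensor of hair cell release, gave 65.2, 71.7 and 55.7 in adults, against 104, 105 and 78.7 at P3 (log2 fold change -0.57, SE 0.28, limma adjusted p = 0.259). The 18 kept genes of calcium handling had a median of 0.57. Of them 4 were called higher in the adult and 0 at P3, against 4.58% and 5.54% of all genes. They were Kcnn2 (3.17, limma adjusted p = 0.00311), the calcium-gated potassium channel of outer hair cells, the calcium buffer Calb2 (2.64, adjusted p = 0.0225), and the calcium exporters Atp2b3 (2.47, adjusted p = 0.0195) and Slc8a3 (2.16, adjusted p = 0.0171). Kcnn2 gave 202, 385 and 561 in adults, against 47.5, 38.4 and 32.5 at P3, so adult replicate 1 was its lowest adult array, unlike Scn8a.

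**Figure D4:**
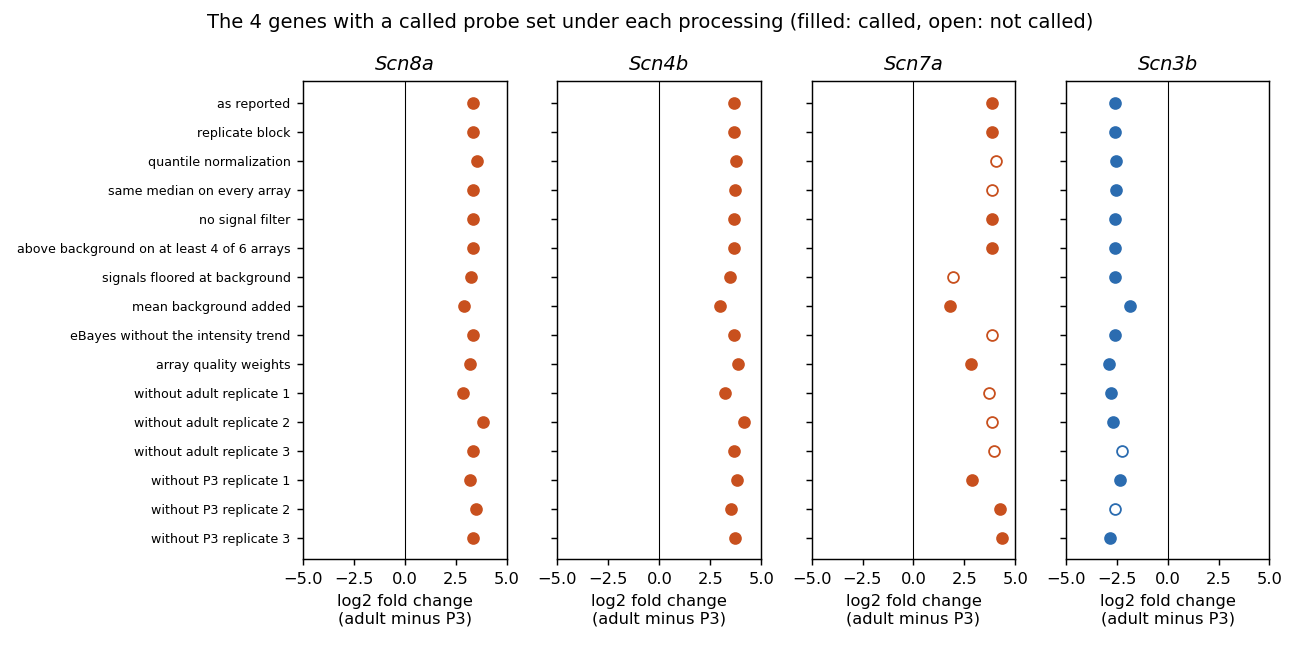
Log2 fold change (horizontal axis, adult minus P3) of the brightest called probe set of Scn8a, Scn4b, Scn7a and Scn3b as reported and in each alternative setting, 1 row per setting; filled points are called and open points are not. Scn8a at 2.82 to 3.83 and Scn4b at 2.97 to 4.15 are called in all rows, Scn7a is not called in 7 alternative settings, and Scn3b is not called in 2.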

How the data were processed

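RNA of adult and P3 CSE pools was measured on 6 Affymetrix Mouse Genome arrays, 3 per stage. The deposited intensities are linear MAS5.0 signals that the authors obtained with GCOS (version 1.2 per the labels) scaling each array to a trimmed mean of 100. These intensities were used as deposited. Columns were matched to samples by the sample name that each column carries, with 0 unmatched, and the titles gave stage and replicate. Genes were named from a 2016 array annotation. Log2 signals were compared with limma 3.58.1 in R 4.3.3 (lmFit, eBayes with intensity trend, stage only, all 6 arrays), in place of the SAM test of the study, with intervals of 95%. The number of arrays limits the precision, and with 3 arrays a stage the smallest p of an exact permutation test is 0.1. The procedure was tested on simulated data. Where no array of the lower stage exceeded background, a fold is a lower bound against the background level. Any member may be named. Genes of other lists are named when called (up to 4 per direction) or when they define a cell type. The members and lists were chosen with earlier results of these data known. Alternatives covered the replicate block, scaling, filters, floors, the variance trend, array weights, each array left out and averaging over probe sets.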

Additional observations from a re-analysis of the deposited data

How the results depend on the processing

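Shared replicate numbers are not stated to pair the pools. Deviations of same-numbered arrays correlated at 0.182, 0.213 and 0.0762, and each array correlated best with its own number, a hint from the data and not from the design. With the replicate number as a block, 8 member probe sets and 5 genes (Cacnb4, Cacng2 and Scn1a added) were called higher in the adult. Over the array the counts were 1331 (adult) and 1318 (P3), against 984 and 1125 as reported.

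Array quality weights gave 15 member probe sets and 6 genes higher in the adult and 8 probe sets and 7 genes higher at P3, and over the array 4411 and 3182. Floored signals and averaging over the probe sets of each gene both gave 4 genes higher in the adult, against 2. Over the array, 280 (adult) and 284 (P3) probe sets were called with the same median on every array, and 414 and 485 without the trend. With an array left out, the array counts ran from 234 to 1399 higher in the adult and from 342 to 1440 higher at P3. The member counts then ran from 2 to 9 probe sets and from 2 to 4 genes higher in the adult and from 0 to 2 for both at P3, and the median over member genes from -0.55 to -0.033. The causes were not tested.

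Signs changed only in values that were not called. Cacna1c (dimmer probe set) was -0.22 with floored signals. With the mean over probe sets Cacna1d was -0.079 and Scn2a -0.075. Cacna2d3 was 0.0094 with quantile normalization and 0.0015 with background added, where Cacnb1 was 0.035. With array weights Cacna2d4 was 0.012, Cacnb1 0.17, Cacng5 -0.26 and Scn11a 0.011, and Scn11a was 0.0066 with the same median. With an array left out the values ran from -1.18 to 0.040 for Cacna1a, -0.036 to 0.18 for Cacna1d, -0.53 to 0.42 for Cacna2d3, -1.15 to 0.78 for Cacnb1, -0.41 to 0.060 for Cacng4, -0.18 to 0.22 for Cacng5, -0.32 to 1.05 for Cacng7, -0.17 to 0.19 for Scn11a and -0.56 to 1.31 for Scn2a. Of the other single values 521 kept direction and call, 33 gained a call and 16 lost one. No depth can be given for arrays, and signals near background limit Scn9a, Scn11a, Cacna1f and Cacna2d4.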
